A study of Mus musculus with 8 samples.

Results

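The 10 genes of de novo lipogenesis, the pathway by which the liver makes fatty acids from sugar, were measured in whole livers of MøFoxO1-KO mice and WT littermates. The members were chosen by name as the program driven by SREBP-1c and ChREBP. They were Acly, Me1, Acaca, Acacb, Fasn, Elovl6, Scd1, Thrsp, Srebf1 and Mlxipl, that is 10 of the 46517 Ensembl genes in the deposited table, and all 10 passed the filter on low counts that left 13278 genes for testing. MøFoxO1-KO mice were homozygous for a loxP-flanked FoxO1 gene and carried Cre under the myeloid Lyz2 promoter, and WT littermates carried the same loxP-flanked alleles without Cre. All mice were male, on the C57BL/6 background and 31 weeks old, had started a NASH-inducing diet at the age of 6 weeks and eaten it for 25 weeks, and were fasted for 16 hours before the liver was taken. Each group had 4 livers, numbered 22 to 25 for WT and 26 to 29 for MøFoxO1-KO, each sequenced as 1 library of polyadenylated RNA. The composition of the diet is not given in the sources used here. The comparison asks how removal of FoxO1 from myeloid cells bears on the lipogenic transcripts of the liver, most of which come from hepatocytes, a cell type that Lyz2-Cre does not target.

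In de novo lipogenesis, citrate that leaves the mitochondria is split into acetyl-CoA, acetyl-CoA is carboxylated to malonyl-CoA, and fatty acid synthase joins malonyl-CoA units into palmitate with electrons from NADPH. Palmitate is then lengthened and desaturated. SREBP-1c, made from the Srebf1 gene and released from the membrane by cleavage, carries the insulin signal to these genes, and ChREBP, the product of Mlxipl, carries the sugar signal. The pathway is active after feeding and low in a fasted liver, and it contributes to fat storage in steatosis.

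Me1 and Acacb were the members in which all 4 MøFoxO1-KO livers lay below all 4 WT livers, with levels 3.97-fold and 2.67-fold lower. The other 6 enzymes and accessory genes (Acly, Acaca, Fasn, Elovl6, Scd1 and Thrsp) had lower means in MøFoxO1-KO livers with overlapping groups, and the transcription factor genes Srebf1 and Mlxipl had slightly higher means with overlapping groups. No member passed a Benjamini-Hochberg (BH) adjusted P of 0.05 over all tested genes (edgeR's quasi-likelihood test), against 0.294% of all tested genes. With the limit of 1.5 on the absolute log2 fold change added, 0.188% of all tested genes were called. At an unadjusted P under 0.05, 2 of the 10 members (Me1 and Acacb) stood out, both on the lower side, where 16.7% of all tested genes did so in either direction and 8.06% on the lower side. The same 2 members had groups that did not overlap, as had 9.71% of all tested genes in either direction. DESeq2's Wald test gave Benjamini-Hochberg adjusted P values under 0.05 for the same 2 members, 0.0141 for Me1 and 0.00933 for Acacb, where 1.84% of all tested genes were called lower. Me1 also passed the limit on the fold change in DESeq2, with 0.565% of all tested genes on the lower side. In sum, 8 of 10 members had a negative log2 fold change, as did 51.7% of all tested genes, and the median over the members was -0.71 against -0.01 over all tested genes. Without WT replicate 23, a library described below, the median over the members was -0.23, and with 1 surrogate variable (a hidden covariate estimated from all genes) it was -0.084. Because whole liver was sequenced, fewer cells of a type and less RNA per cell cannot be told apart.

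The 8 libraries held between 15253218 and 18025481 counts, and the highest and lowest raw counts of any member were 352920 for Scd1 in WT replicate 23 and 87 for Acacb in MøFoxO1-KO replicate 29. Foxo1, the targeted gene, averaged 404 ± 73.9 normalized counts in the 4 WT livers against 359 ± 73.4 in the 4 MøFoxO1-KO livers (SD), with overlapping groups. Whole liver does not isolate the myeloid transcripts, so these values do not check the deletion. Normalized counts are the counts of each library scaled to the same size by edgeR's TMM factors. WT replicate 23 stood apart from the other libraries. It held the highest value of the 8 libraries for 27.2% of all tested genes and for 8 of the 10 members, so fold changes of the members, medians of gene lists, groups of correlations and WT levels are also given without it.

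**Figure D1:**
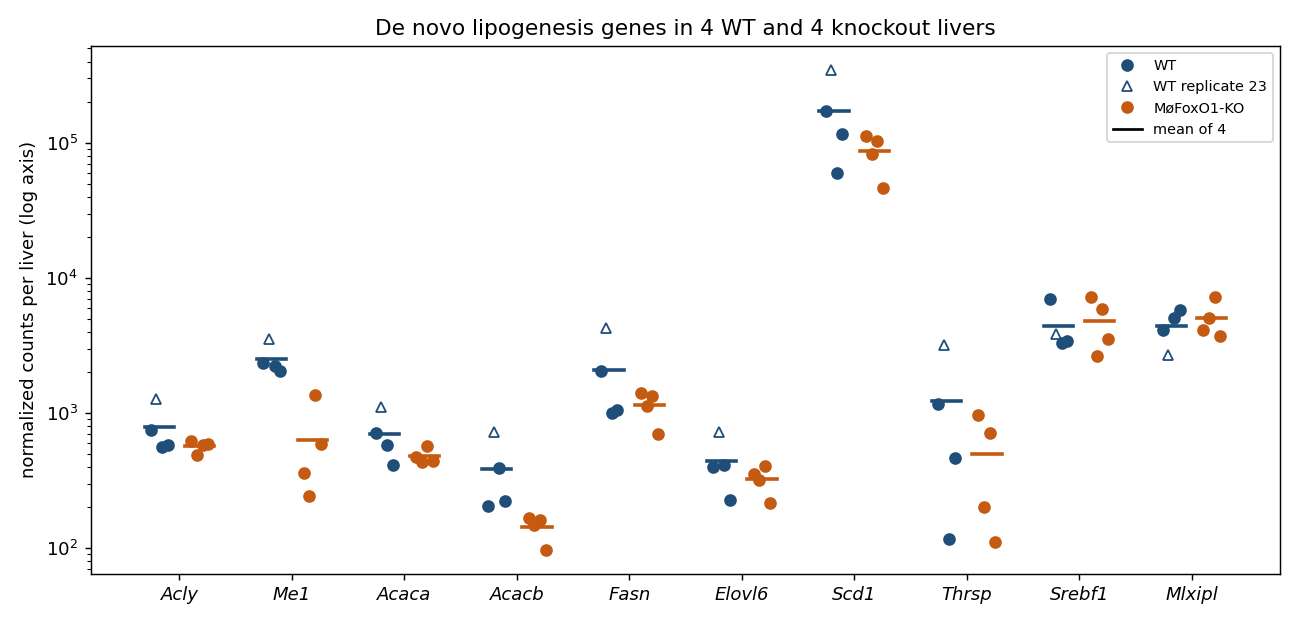
Normalized counts (log axis) of the 10 genes in each liver, with WT in blue, MøFoxO1-KO in orange, WT replicate 23 as an open triangle and a bar at the mean of 4 livers. Only for Me1 and Acacb did every MøFoxO1-KO point lie under every WT point, and the triangle is the highest WT point for all genes but Srebf1 and Mlxipl.

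Promoter sequences are shown for the members on which the comparison turns, Me1 and Acacb, and for Fasn, which gives the pathway its product. They are RefSeq sequences on GRCm38.p6, which has the coordinates of the deposited table, and 9 of the 10 members, all but Scd1, matched an entry. Each runs 5′ to 3′ on the strand of the gene and ends before the RefSeq start site or before the first exon base of the gene, whichever comes first. Capitals mark CCAAT, the box bound by NF-Y, and GGGCGG, the GC box bound by Sp1, each in either orientation. The stretches are chr9:86695954-86696164 for Me1, chr5:114165268-114165508 for Acacb and chr11:120824548-120824797 for Fasn.
Me1: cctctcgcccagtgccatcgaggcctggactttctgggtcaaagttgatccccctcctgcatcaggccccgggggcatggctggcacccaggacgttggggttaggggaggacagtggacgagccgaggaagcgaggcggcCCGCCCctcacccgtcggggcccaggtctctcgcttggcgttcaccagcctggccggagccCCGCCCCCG
Acacb: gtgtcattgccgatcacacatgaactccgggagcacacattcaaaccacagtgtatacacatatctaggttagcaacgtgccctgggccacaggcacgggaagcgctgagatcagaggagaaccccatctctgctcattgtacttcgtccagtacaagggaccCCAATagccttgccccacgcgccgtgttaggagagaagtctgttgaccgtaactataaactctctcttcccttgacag
Fasn: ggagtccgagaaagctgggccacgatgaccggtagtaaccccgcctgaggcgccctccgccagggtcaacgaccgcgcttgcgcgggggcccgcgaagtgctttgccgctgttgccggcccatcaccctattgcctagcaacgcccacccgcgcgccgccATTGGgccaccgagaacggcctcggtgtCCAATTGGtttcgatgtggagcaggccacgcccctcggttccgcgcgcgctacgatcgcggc
The Acacb stretch precedes a start site within the gene, which begins at 114146535, so it lies inside the gene and outside its exons. It holds 1 CCAAT box. The Fasn stretch holds 3 CCAAT boxes, of which the last 2 overlap, and the Me1 stretch holds 2 GC boxes and no CCAAT box. The last 3 capitals of the Me1 stretch begin a further GC box that continues past the end. Me1 has another RefSeq start site, inside the gene, whose promoter is not printed and holds 1 CCAAT box and no GC box. In the 250 bases before a start, 33.8% of 32851 RefSeq promoters had a CCAAT box and 32.7% a GC box. The sterol response element core TCACNCCAC, an SREBP site, was found in 1.05% of all promoters and before 1 of the 13 start sites of the members, in Mlxipl. The E-box CACGTG was in 6.02% and likewise in 1 promoter of Mlxipl. A carbohydrate response element with 2 perfect E-boxes was in none of the 32851 promoters. Looser forms of this element and of the sterol response element were not searched, so a promoter without a match may still hold such a site. A match in these letters is a description of the sequence, and sites outside the 250 bases were not searched.

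Me1 encodes cytosolic malic enzyme, which makes NADPH for fatty acid synthesis, and Acly encodes ATP citrate lyase, which makes the cytosolic acetyl-CoA. Me1 (ENSMUSG00000032418) lies on chromosome 9 of GRCm38 from 86581371 to 86695953 on the minus strand. WT replicates 22 to 25 had 2358, 3513, 2216 and 2042 normalized counts of Me1. MøFoxO1-KO replicates 26 to 29 had 359, 244, 1350 and 594. The groups did not overlap, and replicate 28 was the highest MøFoxO1-KO liver, at 0.661 of the lowest WT liver. Mean Me1 was 2532 ± 667 in WT livers against 637 ± 498 in MøFoxO1-KO livers (SD, n = 4 each) (exact two-sided permutation test, P = 0.0286, the smallest that 4 against 4 livers can give). Groups of 4 that do not overlap always give this P, so it restates their separation. For the members whose groups overlapped, the same exact permutation test gave unadjusted P from 0.2 (Scd1) to 0.857 (Srebf1). On the log2 scale the fitted difference was -1.99 ± 0.46 (SE), with a 95% confidence interval from -3.02 to -0.96 (edgeR, BH-adjusted P = 0.111). Without MøFoxO1-KO replicate 28 the log2 fold change was -2.65 and passed the test (edgeR, BH-adjusted P = 0.00884), and without WT replicate 23 it was -1.79 (edgeR, BH-adjusted P = 0.201).

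Acly (ENSMUSG00000020917, chromosome 11 from 100476353 to 100528000, minus strand) had 755, 1266, 557 and 575 normalized counts in WT replicates 22 to 25. In MøFoxO1-KO replicates 26 to 29 it had 625, 486, 576 and 590. The MøFoxO1-KO livers lay close together, within 1.29-fold of each other, and inside or just under the range of the WT livers other than replicate 23. Acly had a log2 fold change of -0.47 ± 0.24 (SE) (edgeR, BH-adjusted P = 0.367), and -0.14 without WT replicate 23. Set against Acly in the same liver, per length of transcript, the ratio of Me1 to Acly ranged from 3.81 to 5.46 in WT livers and from 0.688 to 3.22 in the knockout livers. The groups did not overlap in this ratio. They did in the ratio of Me1 to Fasn, which was 2.12 to 5.66 in WT livers and 0.551 to 2.57 in the knockout livers. Ratios between members were chosen after their values had been seen.

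Acaca and Acacb encode the acetyl-CoA carboxylases. ACC1, the Acaca product, makes the cytosolic malonyl-CoA that is built into fatty acids, and ACC2, the Acacb product, sits at the mitochondrial outer membrane, where its malonyl-CoA restrains carnitine palmitoyltransferase and with it fatty acid oxidation. Acacb (ENSMUSG00000042010) lies on chromosome 5 from 114146535 to 114250761 on the plus strand. It had 205, 722, 389 and 225 normalized counts in WT replicates 22 to 25. MøFoxO1-KO replicates 26 to 29 had 167, 149, 161 and 97.4. Every MøFoxO1-KO liver lay below every WT liver, although the distance between the highest MøFoxO1-KO liver and the lowest WT liver was small, a ratio of 0.813. Means were 385 ± 239 (SD, n = 4) and 144 ± 31.7 (SD, n = 4) (exact two-sided permutation test, P = 0.0286, which again only restates that the groups do not overlap). Acacb had a fitted log2 fold change of -1.42 ± 0.38 (SE), with a 95% confidence interval from -2.27 to -0.57 (edgeR, BH-adjusted P = 0.134). Leaving out WT replicate 23 moved it to -0.92 (edgeR, BH-adjusted P = 0.213), and the groups still did not overlap. Among the 10 members, 2 were below in all livers (Me1 and Acacb), with or without WT replicate 23. Of all tested genes 4.71% were, and 6.19% without that library.

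Acaca (ENSMUSG00000020532, chromosome 11 from 84129672 to 84401651, plus strand) had 713, 1118, 580 and 411 normalized counts in WT replicates 22 to 25. The MøFoxO1-KO replicates 26 to 29 had 470, 432, 569 and 440. WT replicate 25 held the lowest value of all 8 livers, so the groups overlapped. The log2 fold change of Acaca was -0.56 ± 0.26 (SE) (edgeR, BH-adjusted P = 0.319), and -0.25 without WT replicate 23. The ratio of Acacb to Acaca per length was 0.51, 1.14, 1.19 and 0.97 in WT replicates 22 to 25. In MøFoxO1-KO replicates 26 to 29 it was 0.629, 0.612, 0.502 and 0.392. WT replicate 22 fell within the MøFoxO1-KO range and the other 3 WT livers lay above it.

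Fasn encodes fatty acid synthase, which assembles palmitate, and Thrsp encodes Spot 14, a small nuclear and cytosolic protein that follows the lipogenic state of the liver. Fasn (ENSMUSG00000025153) lies on chromosome 11 from 120805940 to 120824178 on the minus strand. It had 2032, 4249, 1002 and 1047 normalized counts in WT replicates 22 to 25. In MøFoxO1-KO replicates 26 to 29 the counts were 1407, 1131, 1346 and 694. WT replicates 24 and 25 lay below 3 of the 4 MøFoxO1-KO livers. Fasn differed by -0.86 ± 0.44 (SE) in log2 fold change, with a 95% confidence interval from -1.84 to 0.11 (edgeR, BH-adjusted P = 0.358). Without WT replicate 23 it was -0.25 ± 0.30 (SE). Without WT replicate 24 it was -1.095 ± 0.417 (SE), so the size of the estimate depended on which WT liver was left out.

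Thrsp (ENSMUSG00000035686, chromosome 7 from 97412938 to 97417730, minus strand) was the most variable member. Its normalized counts were 1159, 3163, 117 and 462 in WT replicates 22 to 25. They were 966, 202, 711 and 111 in MøFoxO1-KO replicates 26 to 29. The highest WT liver exceeded the lowest by 27-fold, and the same span among MøFoxO1-KO livers was 8.72-fold. The fitted log2 fold change, -1.30 ± 0.90 (SE), had a BH-adjusted P of 0.507 (edgeR) and shrank to -0.22 without WT replicate 23.

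Scd1 encodes the stearoyl-CoA desaturase that makes monounsaturated fatty acids, and Elovl6 encodes the elongase that lengthens palmitate to stearate. Scd1 (ENSMUSG00000037071, chromosome 19 from 44394451 to 44407709, minus strand) took 0.42 to 2.1% of all counts in WT livers against 0.266 to 0.653% in MøFoxO1-KO livers. WT replicates 22 to 25 had 170900, 347000, 59760 and 116300 normalized counts of Scd1. MøFoxO1-KO replicates 26 to 29 had 112800, 83030, 103900 and 46740. WT replicate 24 was the WT liver that fell among the MøFoxO1-KO livers. Scd1 had a fitted log2 fold change of -1.0 ± 0.48 (SE), with a 95% confidence interval from -2.06 to 0.06 (edgeR, BH-adjusted P = 0.329). Leaving out WT replicate 23 moved it to -0.42, and leaving out WT replicate 24 to -1.29.

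Elovl6 (ENSMUSG00000041220, chromosome 3 from 129532355 to 129638495, plus strand) had 398, 723, 415 and 226 normalized counts in WT replicates 22 to 25. MøFoxO1-KO replicates 26 to 29 had 354, 321, 406 and 217 normalized counts of Elovl6. Apart from the high WT replicate 23, the groups spanned nearly the same range. Its log2 fold change was -0.44 ± 0.31 (SE) (edgeR, BH-adjusted P = 0.522), and -0.09 without that library.

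**Figure D2:**
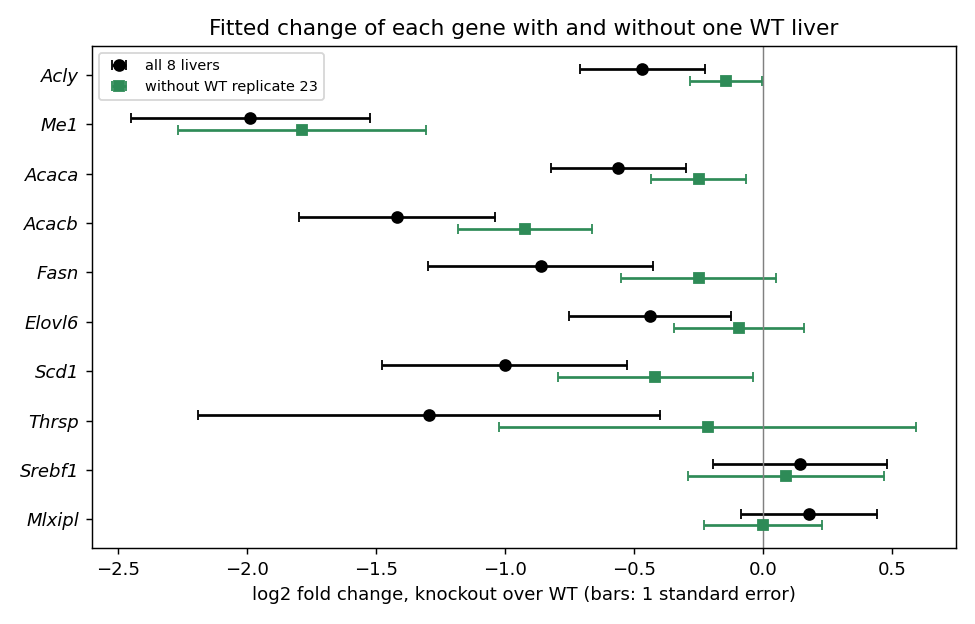
Fitted log2 fold change of each gene (MøFoxO1-KO over WT, edgeR) with bars of 1 standard error, for all 8 livers (black circles) and without WT replicate 23 (green squares). When that liver is left out the estimates of Fasn, Scd1, Thrsp and Acacb move toward 0 (to -0.25, -0.42, -0.22 and -0.92), and Me1 goes from -1.99 to -1.79.

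Srebf1 and Mlxipl had higher means in MøFoxO1-KO livers, unlike the enzymes, within a wide spread. Srebf1 (ENSMUSG00000020538, chromosome 11 from 60199089 to 60222581, minus strand) had 6953, 3870, 3273 and 3403 normalized counts in WT replicates 22 to 25. Its counts were 7244, 2666, 5898 and 3524 in MøFoxO1-KO replicates 26 to 29. High and low livers were found in both groups, with WT replicate 22 and MøFoxO1-KO replicates 26 and 28 above all others. For Srebf1 the fitted log2 fold change was 0.14 ± 0.34 (SE), with a 95% confidence interval from -0.61 to 0.90 (edgeR, BH-adjusted P = 0.867). Its sign turned without MøFoxO1-KO replicate 26 (-0.12). Gene counts sum the SREBP-1a and SREBP-1c transcripts, so the isoforms were not separated, and transcript counts do not report how much of the protein was cleaved.

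Mlxipl (ENSMUSG00000005373, chromosome 5 from 135089890 to 135138382, plus strand) had 4140, 2697, 5093 and 5818 normalized counts in WT replicates 22 to 25. In MøFoxO1-KO replicates 26 to 29 it had 4151, 5035, 7189 and 3701. WT replicate 23, the highest liver for 8 other members, was the lowest for Mlxipl. The fitted log2 fold change of Mlxipl was 0.18 ± 0.26 (SE), with a 95% confidence interval from -0.41 to 0.77 (edgeR, BH-adjusted P = 0.778). Leaving out WT replicate 23 moved it to 5e-04, and its sign turned without MøFoxO1-KO replicate 28 (-0.036).

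Levels of different members were compared per length, as counts per kilobase of exon scaled to library size (RPKM). Scd1 was by far the most abundant, at 2242 ± 1506 in WT livers against 1040 ± 375 in MøFoxO1-KO livers on that scale (SD, n = 4 each). In WT livers it was followed by Thrsp, Mlxipl, Srebf1 and Me1, with means from 59.2 to 42.0, and neighbours in that order overlapped in range. The place of Thrsp rested on WT replicate 23, since over the other 3 WT livers the order was Scd1, Mlxipl, Srebf1, Me1 and Thrsp, with Thrsp at 29.05 ± 26.4 (SD, n = 3), and the other 5 members kept their order. Fasn at 13.3 ± 9.03 (SD, n = 4) and Acly at 9.47 ± 3.48 (SD, n = 4) came next and overlapped each other. Elovl6 had 4.37 ± 1.89, and Acaca at 2.63 ± 1.01 and Acacb at 2.55 ± 1.48 were lowest (SD, n = 4). The order in MøFoxO1-KO livers was Scd1, Mlxipl, Srebf1, Thrsp, Me1, Fasn, Acly, Elovl6, Acaca and Acacb. Me1 separated from Fasn in all 4 WT livers without overlap (33.2 to 55.1 against 6.66 to 26.05), while in MøFoxO1-KO livers their ranges overlapped (3.48 to 21.5 against 4.01 to 8.37). Acacb and Acaca overlapped in WT livers and did not in MøFoxO1-KO livers, where Acacb had 0.864 ± 0.207 (SD, n = 4) and Acaca 1.62 ± 0.292 (SD, n = 4). Scaling to the sum of these levels instead (TPM) left all 10 ranks of both groups in place. That scaling multiplies every gene of a library by the same factor, so the order within a library could not change.

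**Figure D3:**
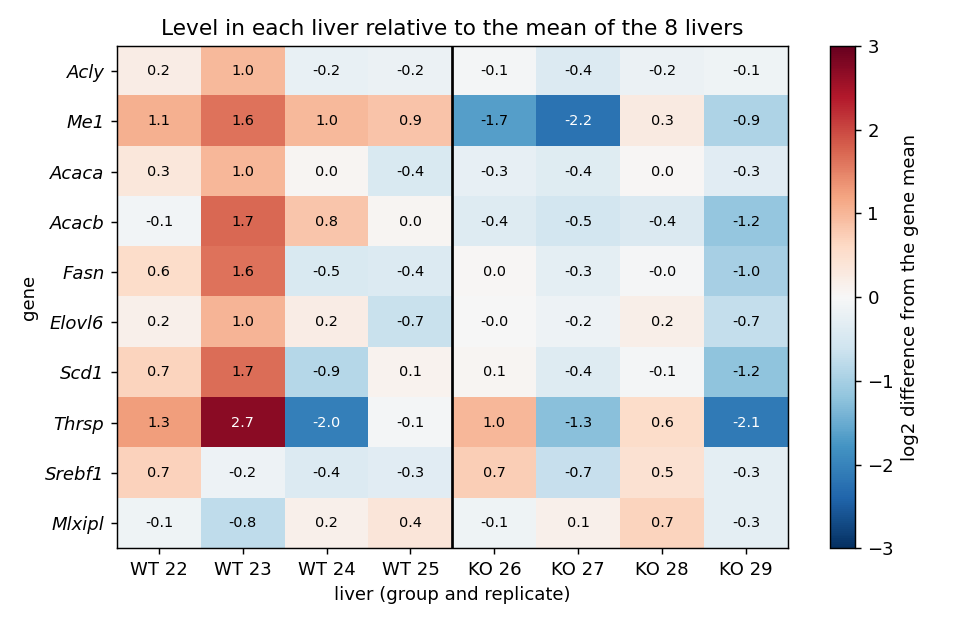
Log2 difference of each gene (rows) in each liver (columns, WT to the left of the line) from the mean of that gene over the 8 livers. WT replicate 23 is above the mean by 0.96 to 2.71 for the 8 genes other than Srebf1 and Mlxipl, and MøFoxO1-KO replicate 29 has the lowest value for 5 genes. In the row of Me1 every WT value (0.86 to 1.64) is above every MøFoxO1-KO value, of which only that of replicate 28 (0.26) is above the mean.

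WT livers had the larger coefficient of variation for 7 of the 8 enzyme and accessory genes. It was 73.0% in WT and 28.2% in MøFoxO1-KO livers for Fasn, 71.6 and 33.9% for Scd1, 42.7 and 13.2% for Acaca, and 41.9 and 10.4% for Acly. Me1 was the exception, with 26.3% in WT and 78.1% in MøFoxO1-KO livers. WT replicate 23 had 3.12 times the mean of the other 3 WT livers for Fasn, 3.0 times for Scd1, 5.46 times for Thrsp and 1.59 times for Me1. The difference in spread between the groups was not tested. Over the 5 endothelial markers (Pecam1, Stab2, Kdr, Cdh5 and Lyve1), WT replicate 23 had a summed 1392 normalized counts, against 2143 to 3044 in the other 7 livers. It was also lowest for the 7 macrophage markers, at 1959 against 2124 to 9407, and within the range of the others for the 7 hepatocyte markers, at 1557000 against 1166000 to 2007000. MøFoxO1-KO replicates 27 and 29 had the highest macrophage sums, 6459 and 9407. The 7 macrophage markers summed to 1959 to 3450 in WT and 2124 to 9407 in MøFoxO1-KO livers, and 6 of them had a positive log2 fold change. Marco had the largest difference in mean normalized counts, 38.7 ± 34.0 in WT against 1409 ± 1219 in MøFoxO1-KO livers (SD, n = 4 each). Its BH-adjusted P was 0.087 by edgeR and 4.6e-04 by DESeq2's Wald test. Clec4f followed with 1133 ± 324 against 1795 ± 980 (SD, n = 4 each) (edgeR, BH-adjusted P = 0.366). The groups overlapped for both genes, with Marco at 66.4 in MøFoxO1-KO replicate 28 and 81.2 in WT replicate 24. Lyz2, whose promoter drives Cre in the MøFoxO1-KO mice only, was the marker with a negative log2 fold change, -0.77 ± 0.64 (SE). Whether the Cre allele bears on the Lyz2 level was not tested. The 5 cholangiocyte markers summed to 1310 to 1727 and 978.7 to 1495, most of it from Spp1. For 6 stellate and fibroblast markers the sums, most of them from Dcn, were 3816 to 6019 and 4126 to 6923, and 4 of the 6 had a negative log2 fold change. Among these, Col1a1, a collagen gene, had 249 to 513 normalized counts in WT and 46.6 to 228 in MøFoxO1-KO livers, with no overlap and a log2 fold change of -1.28 ± 0.42 (SE) (edgeR, BH-adjusted P = 0.193). Col3a1, another, had -0.76 ± 0.30 (SE) (edgeR, BH-adjusted P = 0.250), and both were picked after their values were seen. The part of these differences in the lipogenic values was not tested.

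Members were compared with each other across the 8 livers in 45 pairs, on log2 normalized counts. Fasn, Acaca, Acly, Scd1, Elovl6 and Thrsp varied together, with Pearson r from 0.66 to 0.96 and a median of 0.87 in 15 pairs, and 10 of these pairs had an adjusted P under 0.05 (exact permutation test, Benjamini-Hochberg over 45 pairs). By Spearman's rho, 1 of the 45 pairs (Fasn and Thrsp) did. This group leaves out Me1 and Acacb, the members whose WT and MøFoxO1-KO livers did not overlap, and was formed with the values known. Over all 28 pairs of the 8 enzyme and accessory genes, r ranged from 0.41 to 0.96. The median of those 28 was 0.74, or 0.44 without WT replicate 23. For the 15 pairs without Me1 and Acacb, the median was 0.85 after group means were subtracted and 0.64 without WT replicate 23. Without that liver r of these 15 pairs ranged from 0.21 to 0.93. With or without it, their range overlapped those of Me1 and Acacb given below. For Fasn and Thrsp, r was 0.90 (exact permutation, P = 2.23e-04, adjusted P = 0.00502) and Spearman's rho was 0.98 (exact permutation, P = 3.97e-04, adjusted P = 0.0179). Without the 2 livers farthest from the Fasn median (WT replicate 23 and MøFoxO1-KO replicate 29), r was 0.80. For Fasn and Scd1, r was 0.96 (exact permutation, P = 4.71e-04, adjusted P = 0.00707), rho was 0.86 (exact permutation, P = 0.0107, adjusted P = 0.121) and r without those 2 livers was 0.82.

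Me1 had r from 0.41 to 0.68 and Acacb from 0.50 to 0.79 with those 6 genes, and no pair of either passed the adjustment. Without WT replicate 23 these ranges were 0.17 to 0.58 for Me1 and 0.0086 to 0.50 for Acacb. For Me1 and Fasn, r was 0.51 (exact permutation, P = 0.204, adjusted P = 0.316) and rho 0.40 (exact permutation, P = 0.327, adjusted P = 0.446), with r at 0.12 without the 2 farthest livers. For Srebf1 and Fasn, r was 0.31 (exact permutation, P = 0.483, adjusted P = 0.572) and rho 0.62 (exact permutation, P = 0.115, adjusted P = 0.287), and r was 0.81 without the 2 farthest livers. Without WT replicate 23 alone, r of Srebf1 with the 8 enzyme and accessory genes had a median of 0.60, against 0.22 over all 8 livers. For Mlxipl the median r with these 8 genes was -0.43 over all livers and 0.18 without WT replicate 23, so its sign rested on that liver.

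Outside the members, the genes closest to the Fasn profile over 8 livers were Slc2a2, which encodes the GLUT2 glucose transporter (r = 0.98), C330007P06Rik, Fam110a, Klhl5 and Daam1 (r from 0.97 to 0.98). Slc2a2 had 5253 mean normalized counts in WT and 3904 in MøFoxO1-KO livers, with its highest value, 8238, in WT replicate 23 and its lowest, 2552, in MøFoxO1-KO replicate 29. Closest to the mean profile of the members were Fto (r = 0.99), Zc3h12c, Ankrd17, Furin and Echdc1 (r from 0.97 to 0.98). All 10 of these genes also peaked in WT replicate 23. They are the best of all tested genes, so their correlations are a description and carry no test.

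The wider pathway was read from 7 lists of genes. Of their 86 distinct tested genes, 0 passed an adjusted P of 0.05 (edgeR, Benjamini-Hochberg), 9 were lower and 4 higher at an unadjusted P under 0.05, and 1, Pdha1, passed by DESeq2's Wald test. Over all tested genes the shares at that unadjusted P were 8.06% lower and 8.65% higher, and DESeq2 called 1.84% lower. All 7 medians were negative and smaller in size than that of the members with all 8 livers. Without WT replicate 23 neither held, since the members had a median of -0.23, the other lipogenic targets of SREBP-1c had -0.24 and the SREBP-2 targets had 0.029. Among 12 genes of SREBP processing, 9 had a negative and 3 a positive log2 fold change, with a median of -0.19, or -0.07 without WT replicate 23. Lpin1, a phosphatidate phosphatase, had a log2 fold change of -0.59 ± 0.26 (SE), and Insig2, which holds SREBP in the endoplasmic reticulum, had -0.36 ± 0.425 (SE). Of 16 upstream activators, 10 were on the lower side and 6 on the higher side, with a median of -0.09, or -0.08 without WT replicate 23.

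In the list of activators, Pparg encodes the nuclear receptor PPARγ, which drives lipid storage. Pparg had 480, 466, 532 and 289 normalized counts in WT replicates 22 to 25. It had 8.63, 81.2, 257 and 51.5 in MøFoxO1-KO replicates 26 to 29. All 4 MøFoxO1-KO livers lay below all WT livers, and replicate 28 was the highest of them, as for Me1. The fitted log2 fold change of Pparg was -2.14 ± 0.67 (SE) (edgeR, BH-adjusted P = 0.181). Nr1h3, which encodes LXRα, an activator of Srebf1, had 1426 to 1575 normalized counts in WT and 1699 to 2091 in MøFoxO1-KO livers, a log2 fold change of 0.31 ± 0.11 (SE) (edgeR, BH-adjusted P = 0.212).

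Of 14 genes that supply acetyl-CoA, citrate and NADPH, 12 were on the lower side with a median of -0.09, and without WT replicate 23 there were 8, with a median of -0.023. The 2 largest differences among genes with a mean of at least 50 normalized counts were in Pdha1, a subunit of pyruvate dehydrogenase (log2 fold change -0.78, standard error 0.23), and Pgd, which makes NADPH in the pentose phosphate pathway (-0.57, standard error 0.16). Adjusted P values were 0.165 for Pdha1 and 0.148 for Pgd (edgeR, Benjamini-Hochberg), and DESeq2's Wald test gave 0.0455 for Pdha1 (Benjamini-Hochberg adjusted). Of 12 ChREBP targets in sugar use, 10 were on the lower side with a median of -0.25, or -0.14 without WT replicate 23. Pklr, the liver pyruvate kinase, had -0.80 ± 0.515 (SE), and Fgf21, a hepatokine, had -0.71 ± 0.48 (SE).

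Other lipogenic targets of SREBP-1c (11 of 12 tested) had 10 genes on the lower side and a median of -0.22, which was -0.24 without WT replicate 23. Aacs, acetoacetyl-CoA synthetase, had a log2 fold change of -1.44 ± 0.61 (SE), and Gpam, which starts triglyceride synthesis, had -0.77 ± 0.37 (SE). Among genes that restrain malonyl-CoA or respond to it (7 of 9 tested), 5 were on the lower side and 2 on the higher side, with a median of -0.21. Without WT replicate 23, when all 9 were tested, 5 were on the lower side and 4 on the higher side, with a median of -0.035. Prkaa2 and Prkag1, subunits of AMP-activated protein kinase, had -0.40 ± 0.18 (SE) and 0.32 ± 0.12 (SE). The SREBP-2 targets of cholesterol synthesis (15 of 16 tested) had 11 genes on the lower side and a median of -0.11, which was 0.03 without WT replicate 23. Of the list genes named here, Insig2 turned sign without WT replicate 23 (0.0165). Pklr moved to -0.16, Gpam to -0.24, Lpin1 to -0.39 and Prkaa2 to -0.23, while Pparg had -2.11. The lists were written with earlier results of these data known, and 51.7% of all tested genes lay on the lower side.

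**Figure D4:**
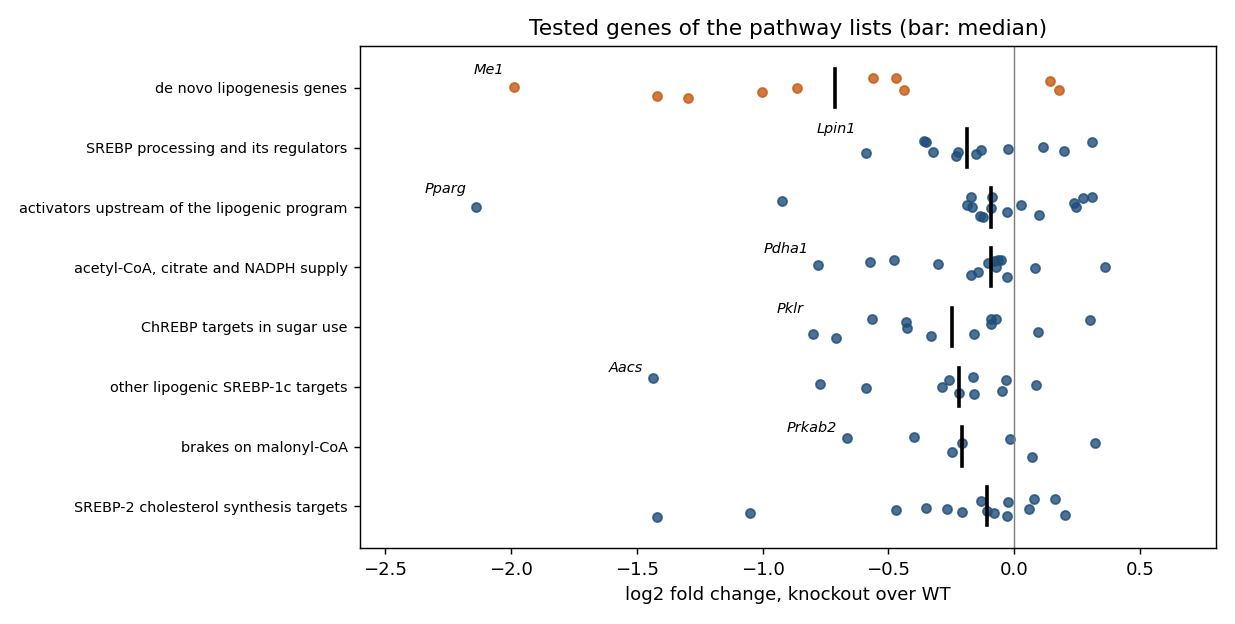
Log2 fold change (MøFoxO1-KO over WT, edgeR) of every tested gene in the 10 lipogenesis genes (orange) and 7 related lists (blue), with a black bar at the median and the lowest gene named for every list but that of cholesterol synthesis. The median of the members is -0.71 and the medians of the lists lie between -0.25 and -0.09 with all 8 livers, whereas without WT replicate 23 (not drawn) they are -0.23 for the members and -0.24 to 0.029 for the lists.

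Adipose tissue also expresses the lipogenic genes, so adipocyte markers were checked in each library. Of 8 markers, Adipoq, Plin1, Lep, Retn and Slc2a4 had at most 7 counts in any liver, and Lep had none. Fabp4 had 141 to 272 normalized counts in WT and 195 to 303 in MøFoxO1-KO livers. Cfd, which encodes adipsin, had 2347, 2049, 140 and 383 normalized counts in WT replicates 22 to 25. It had 1.92, 11.9, 4514 and 0 in MøFoxO1-KO replicates 26 to 29. Its peak fell in replicate 28, the knockout liver with the most Me1 and Pparg, and the part of this in those values was not tested. The summed level of all 8, most of it Pck1, which hepatocytes also express, was 18340 to 31140 normalized counts in WT and 12380 to 29690 in MøFoxO1-KO livers. Hepatocyte markers were abundant, with Alb taking between 4.72 and 6.73% of all counts. The 7 summed to 1166000 to 1557000 normalized counts in WT and 1389000 to 2007000 in MøFoxO1-KO livers. Of these, 6 had a positive log2 fold change and Hnf4a had -0.32 ± 0.15 (SE). Every MøFoxO1-KO liver lay above every WT liver for Apoa1 (1.07 ± 0.21, SE) and Serpina1a (0.90 ± 0.20, SE). Of all tested genes, 5% did. Their BH-adjusted P was 0.0765 and 0.1015 (edgeR), or 1.47e-05 and 7.57e-04 (DESeq2's Wald test). The part of this in the lipogenic values was not tested. Exons of Fasn, Acaca, Acacb, Acly, Scd1 and Thrsp overlap no other gene of the table. Exons of Me1, Elovl6, Mlxipl and Srebf1 overlap other genes that had at most 4, 69, 13 and 320 counts in any library, from which reads cannot be told apart without strand.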

How the data were processed

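Libraries of polyadenylated RNA from 8 livers were sequenced, and the authors deposited 1 table of raw read counts for 46517 Ensembl genes with exon coordinates and the summed exon length. Per the labels, STAR, featureCounts and mm10 were used, and versions, strand setting and treatment of multi-mapping reads are not given in the sources used here. Symbols came from GENCODE M21.

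Genes were filtered with filterByExpr (minimum count 10, minimum total 15), normalized by TMM and compared in R 4.3.3 without covariates (edgeR 4.0.16, quasi-likelihood F test), on 13278 genes with Benjamini-Hochberg adjustment. The common biological coefficient of variation was 0.256. Confidence intervals used the moderated degrees of freedom of edgeR. Normalized counts were compared by exact two-sided permutation tests of means, and correlations by exact permutation of livers on log2(normalized count + 0.5), in numpy 2.4.6 and scipy 1.17.1. Alternatives were DESeq2 1.42.0, voom of limma 3.58.1, other size factors, filters, a robust fit, 1 surrogate variable from sva 3.50.0 and each library left out. The fits and the correlation test were tested on simulated data. Total counts of 15253218 to 18025481 limit precision for genes with few counts.

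Members, lists, tests and thresholds were chosen with earlier results of these data known. Named genes were all members, the 2 largest differences of each pathway list with a mean of at least 50 normalized counts, any list gene past the adjusted P, and the 5 genes most correlated with Fasn and with the mean member profile, and some of these are not reported here. The Srebf1 isoforms could not be separated in gene counts. Each liver is a separate mouse.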

Additional observations from a re-analysis of the deposited data

Results flagged for a closer look

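Among 24 genes tested in each group of 4 livers, 1 of 48 groups had a liver far from the rest. Srebf1 in WT livers had its highest value, 6953 normalized counts, in replicate 22, and the gap to the next liver was 0.838 of the range of the group, above Dixon's 95% critical value for 4 samples. Chance alone flags about 1 in 20 groups. Without WT replicate 22, the log2 fold change of Srebf1 was 0.46 with a Benjamini-Hochberg adjusted P of 0.537 (edgeR).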

How the results depend on the processing

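Over all tested genes, edgeR called 25 genes, DESeq2's Wald test 144, limma-voom 13, edgeR without a filter on low counts 120 and edgeR without the limit on the fold change 39. Leaving out single libraries gave 3 (without WT replicate 25) to 82 (without MøFoxO1-KO replicate 28), with 15 without WT replicate 22 and 9, 7 and 13 without MøFoxO1-KO replicates 26, 27 and 29. Of the 10 members, 0 passed an adjusted P of 0.05 in edgeR with all livers, 2 with DESeq2, 0 with limma-voom, 2 without a filter on low counts, and 0 to 1 with single libraries left out. At that adjusted P, with no limit on the fold change, 39 of 13278 tested genes passed in edgeR, 586 with DESeq2 and 24 with limma-voom. Without a filter 205 of 23665 did, and 129 of 13490 did without MøFoxO1-KO replicate 28, the fit in which 1 member passed. The median over the members was -0.71, ranged from -0.92 to -0.23 with single libraries left out, the latter without WT replicate 23, and was -0.084 with 1 surrogate variable, on which WT replicate 23 scored 0.843 and the other livers -0.347 to 0.152. With that variable Mlxipl had a log2 fold change of -0.020 and Thrsp of 0.20, turning sign. With single libraries left out, Mlxipl ranged from -0.036 (without MøFoxO1-KO replicate 28) to 0.34 and Srebf1 from -0.12 (without MøFoxO1-KO replicate 26) to 0.46, and the median of the cholesterol list was 0.029 without WT replicate 23. Leaving that library out of list genes, list medians and WT levels was chosen after seeing the data. Over 160 values of single members, 151 kept their direction and side of the threshold, 5 newly passed it (Me1 and Acacb) and 4 turned sign. The cause of these shifts was not tested. No paired analysis was possible because the groups share no replicate number.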
